A study of Mus musculus with 16 samples.

Results

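Cholesterol in mouse tissues is made, taken up, stored and exported by a small set of proteins, and 35 genes of this set were followed here through 8 tissues. They were chosen by symbol from what their products do, and all 35 were found among the 55385 genes of the count table. They comprise 19 enzymes of cholesterol synthesis, 4 genes of sterol sensing (Srebf2, Scap, Insig1 and Insig2), 6 of uptake and transport (Scarb1, Mylip, Npc1, Npc2, Stard4 and Tmem97), the 2 sterol acyltransferases Soat1 and Soat2, and 4 of efflux and its control (Abca1, Abcg1, Nr1h2 and Nr1h3). The choice was made from gene function, with earlier results of these data known.

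The study asked how tissues of the mouse respond to a fast. Male C57BL/6 mice, which arrived at 12 weeks of age, were either fed a standard chow without restriction or kept without food for 24 h, 3 mice in each group. Liver, kidney, heart, lung, spleen, muscle and both white and brown adipose tissue of the 3 mice of a group were pooled in equal parts, and each pool gave 1 short-read RNA-Seq library, 16 in all. No group carried a transgene or a drug. The 8 tissues of a treatment therefore came from the same 3 animals, no tissue has a replicate, and differences between individual mice could not be seen.

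Cells build cholesterol from acetyl-CoA by way of mevalonate, farnesyl diphosphate, squalene and lanosterol. When sterols in the endoplasmic reticulum run low, Scap carries the transcription factor precursor encoded by Srebf2 to the Golgi apparatus, where the active factor is cut free and turns on the synthesis genes. When sterols are ample, the Insig proteins hold Scap back, and oxidised sterols activate the liver X receptors (LXR, encoded by Nr1h2 and Nr1h3), which turn on the exporters Abca1 and Abcg1 and Mylip, a ubiquitin ligase that removes lipoprotein receptors. The liver is known as a main site of cholesterol synthesis and the place where the body disposes of sterols.

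Levels are given as CPM, the count of a gene scaled to a common library total, and as TPM, which also divides by gene length, where levels of different genes are compared. The 16 libraries held between 14245178 and 36069968 counts, so that 3 counts, the floor used here, stood for 0.0832 to 0.211 CPM. Each labelled tissue carried its own marker genes, such as 6 hepatocyte markers with a summed 100351 CPM in fed and 95594 CPM in fasting liver and 5 adipocyte markers at 19829 and 17285 CPM in white adipose. Several pairs of libraries also differed in markers of another tissue: 8 pancreas acinar markers summed to 496 CPM in fed and 11.6 CPM in fasting spleen and to 102 and 213 CPM in liver, 5 skeletal muscle markers to 2219.9 and 1039 CPM in brown adipose, and 5 adipocyte markers to 416 and 948 CPM in heart. In heart, all 6 hepatocyte markers were also called higher, their sum going from 24.6 to 88.5 CPM, and in lung 4 of 5 adipocyte markers, from 157 to 264 CPM. Lung also had 5 cardiomyocyte markers at 968 and 483 CPM and 5 B cell markers at 343 and 177 CPM, all called lower. In white adipose the 5 B cell markers summed to 346 and 82.7 CPM, with 2 called lower. The part of these differences in the results was not tested.

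Within a tissue, a gene was called when its log2 fold change of fasting against fed CPM, with 0.01 CPM added to both, was above 0.5 in size and Fisher's exact test on the 2 libraries gave p under 0.01. With 1 library a group this compares 2 libraries and not 2 conditions, so only calls, values and 95% intervals for counting error are given, and fewer cells of a type and less RNA per cell cannot be told apart in these tissue pieces. Among the 280 combinations of gene and tissue, 110 were called lower in fasting and 21 higher. The synthesis enzymes held 93 of the lower calls, out of 152 combinations, and 4 of the higher ones. The other 16 genes held 17 lower and 17 higher calls out of 128, of which sterol sensing had 12 and 2, uptake and transport 4 and 11, esterification 1 and 2, and efflux 0 and 2. If pools of mice were assumed to differ with a coefficient of variation of 0.2 beyond counting error, 39 of the 110 lower and 10 of the 21 higher calls would remain, and with 0.4, 11 and 1.

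Liver had the most lower calls. There 20 of the 35 genes were lower and 3 higher, where 9.52% of all 25048 genes with a count were called lower and 4.46% higher. Of these 25048 genes, 14085 reached 1 CPM in either liver library, as did all 35 genes followed here. The shares of all genes, here and below, thus include many genes at low levels. In lung, 16 genes were lower and 3 higher (6.49% and 2.68% of all genes). Brown adipose had 15 lower and 5 higher calls (7.58% and 5.39%), and white adipose 13 lower and 5 higher (5.84% and 13.2%). In muscle, 13 were lower and 2 higher (9.39% and 4.42%). Kidney and spleen each had 13 lower calls and no higher one, where 3.93% of genes were called lower and 2.77% higher in kidney, and 1.62% and 2.31% in spleen. Heart had the fewest, 7 lower and 3 higher (5.8% and 4.33%).

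**Figure D1:**
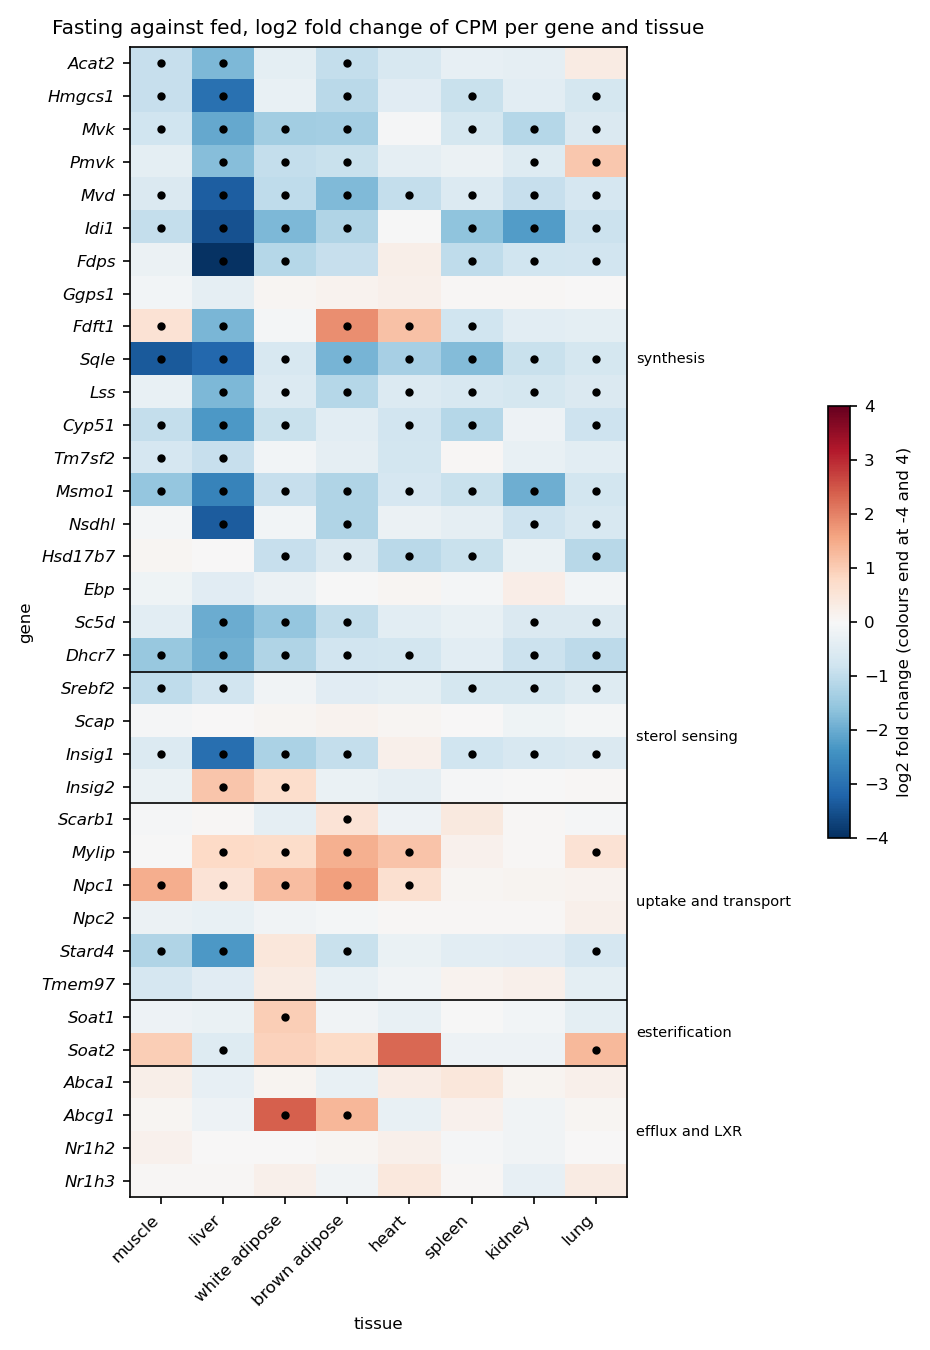
Log2 fold change of fasting against fed CPM for 35 genes (rows, grouped by role) in 8 tissues (columns, 1 library per treatment). Blue is lower and red higher in fasting, and a black dot marks a call by Fisher's exact test on the 2 libraries. The block of synthesis enzymes at the top is mostly blue, deepest in liver, and holds 93 of the 110 lower calls.

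The synthesis enzymes were lower in most tissues. Of 19, 16 were called lower in liver, 13 in brown adipose and in lung, 12 in white adipose, 11 in spleen and in kidney, 10 in muscle and 7 in heart. Their median log2 fold change was -2.0 in liver, -0.96 in brown adipose, -0.88 in white adipose, -0.65 in spleen, -0.63 in lung, -0.59 in muscle, -0.59 in kidney and -0.45 in heart. Over all genes that reached 1 CPM in either library, the median lay between -0.14 in muscle and 0.07 in white adipose. For 17 of the 19 enzymes the lowest log2 fold change was found in liver, the exceptions being Sqle, with its lowest value in muscle, and Hsd17b7, with its lowest value in lung. Scaling by TMM factors instead of library totals would add 0.13 to every log2 value in liver and take 0.10 from those in white adipose.

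Summed over the 19 enzymes, the level per length was 1610 TPM in fed and 501 TPM in fasting liver, 3.22-fold lower. The sums were 702 and 466 TPM in white adipose, 292 and 214 TPM in spleen, and 1280.1 and 946 TPM in kidney. They lay closer together in lung (530.2 and 453 TPM), brown adipose (931 and 809 TPM) and muscle (229 and 206 TPM), and were 234 and 233 TPM in heart. After the fast, the liver sum was below that of kidney. Fdft1, which overlaps another gene in exon bases, was called higher in brown adipose, muscle and heart, and without it the sums of the other 18 enzymes were 832 and 452 TPM in brown adipose, 173 and 121 TPM in muscle and 199.98 and 157 TPM in heart. The fasting sum of brown adipose was thus above that of liver with Fdft1 and below it without (479.7 TPM in fasting liver). In fed liver the highest enzyme was Sc5d at 388 TPM, 24.1% of the sum, and in fed kidney it was Hmgcs1 at 453 TPM, 35.4% of the sum.

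**Figure D2:**
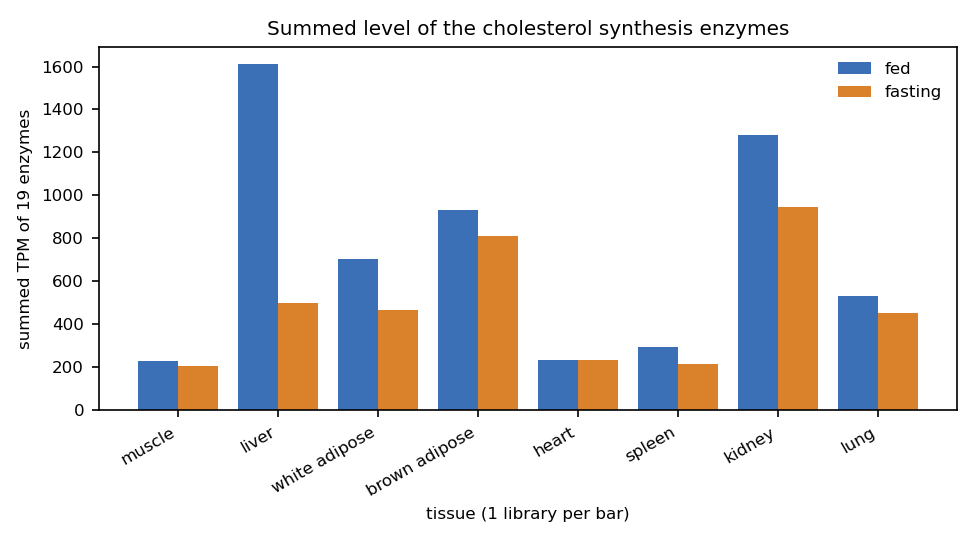
Summed TPM of the 19 cholesterol synthesis enzymes in each of 16 libraries (1 library per bar, no error bar), fed in blue and fasting in orange. The liver pair drops from 1610 to 501 TPM, while the heart pair stands at 234 and 233 TPM.

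For a response shared by the tissues, the 16 libraries were fitted together with tissue as a block and tested with edgeR's quasi-likelihood test, adjusted over 17296 genes. Of the 35 genes, 10 fell and 2 rose at an adjusted p under 0.05, where 2.08% of all genes tested fell and 2.31% rose. Those that fell were the enzymes Mvk, Mvd, Idi1, Sqle, Lss, Cyp51, Msmo1, Sc5d and Dhcr7 and the regulator Srebf2. Those that rose were Mylip and Npc1. The estimate was below 0 for 17 of the 19 enzymes, the exceptions being Ggps1 and Fdft1.

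The tissues stood in for replicates in this fit although they came from the same mice, so that the p-values measure the spread between tissues. Dhcr7, Msmo1 and Srebf2 passed the test whichever tissue was left out. Without brown adipose these 3 alone passed among the genes that fell, without muscle 4 passed, without heart 5 and without kidney 6. Of all genes tested, 52 of 17508 fell without brown adipose and 76 of 17592 without muscle. Without heart it was 60 of 17626 and without kidney 156 of 17258, against 359 of 17296 with every tissue. Lss passed in 6 of these 8 fits, Mvk, Idi1 and Sqle in 5, Cyp51 in 3, and Mvd and Sc5d in 1. Mylip and Npc1 passed without spleen but not without any of the other 7 tissues. Mvd, Sc5d, Mylip and Npc1 also missed the threshold when low counts were filtered on the full model, with adjusted p between 0.0548 and 0.0598 in edgeR. The direction of all 12 genes stayed in every one of these fits.

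**Figure D3:**
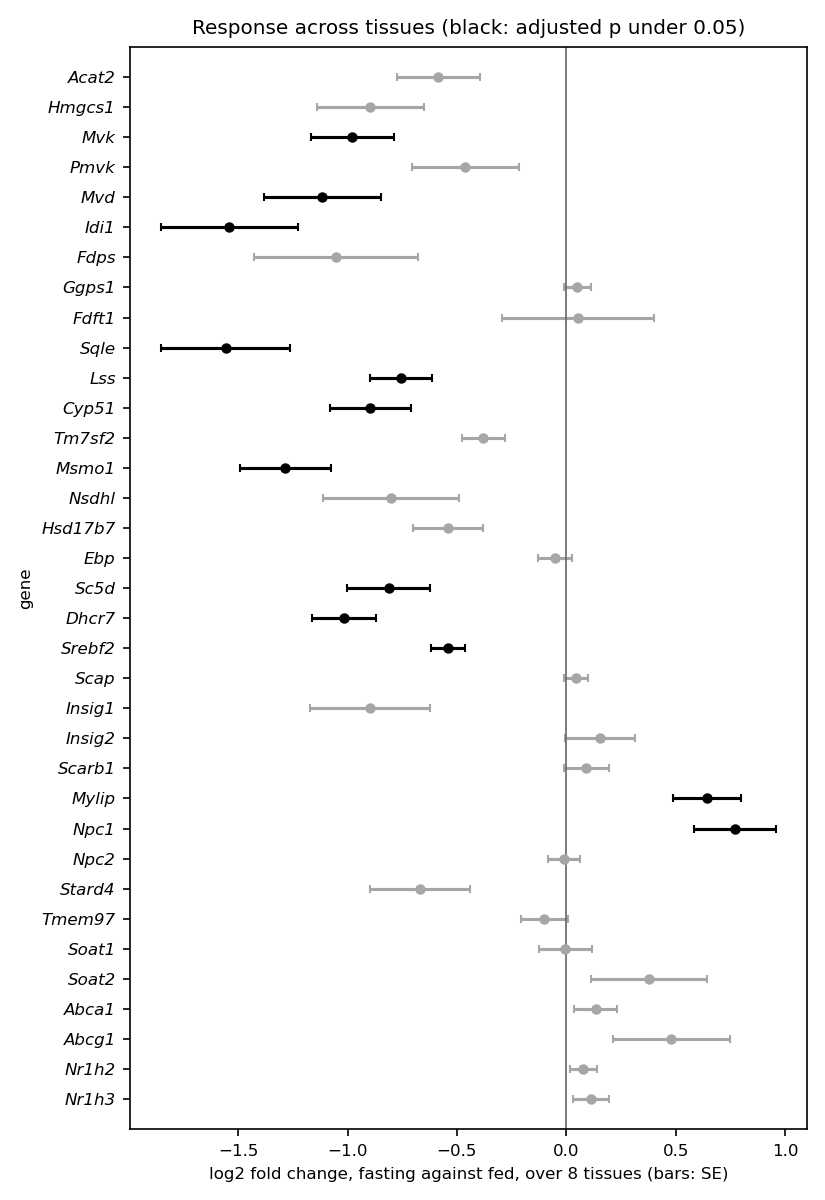
Log2 fold change of fasting against fed over 8 tissues for each of 35 genes (points), from edgeR's quasi-likelihood fit of 16 libraries. Bars are the standard error derived from the F statistic of the test. Black points have an adjusted p under 0.05. Black points lie between -1.56 (Sqle) and 0.77 (Npc1), with 10 genes to the left of 0 and 2 to the right.

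The stretches of DNA just before the transcription start of some of these genes are shown because NF-Y boxes stand in many of them. The factor made from Srebf2 is known to act on such genes with the partner NF-Y, which binds a CCAAT box. RefSeq promoter windows (GRCm38.p6, 250 bases before to 50 bases after the start) were at hand for 27 of the 35 genes and 16 of the 19 enzymes. The 4 motifs were searched on both strands. CCAAT (NF-Y box) occurred in a window of 22 of the 27 genes (81.5%) and of 15 of the 16 enzymes (93.8%), against 42.5% of the 11408 genes with a window among those tested across tissues and 41.1% of all 27025 genes with a window. For GGGCGG (GC box) the shares were 85.2%, 87.5%, 65.9% and 38.2%. The core CACCCCAC of the sterol regulatory element was found in 2 windows, those of Hmgcs1 and Acat2 (7.41% of the genes and 12.5% of the enzymes, against 3.85% of tested and 3.30% of all genes), and CACGTG (E-box) in 6 (22.2%, against 11.3% and 8.09%). Matches of different motifs were counted separately and may share bases at their ends. A match is a description of the sequence, not of binding. Of 11 genes whose 140 bases before the start hold no annotated exon, these bases are printed 5′ to 3′ for 4 enzymes and for Mylip, picked as examples after the boxes were seen, with CCAAT, its reverse complement ATTGG and the sterol element core in capitals.
Mvd (chr8:122443423-122443562, minus strand): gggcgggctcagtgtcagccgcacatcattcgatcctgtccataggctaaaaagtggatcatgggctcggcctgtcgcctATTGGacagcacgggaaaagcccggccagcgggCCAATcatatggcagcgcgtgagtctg
Mvk (chr5:114444129-114444268, plus strand): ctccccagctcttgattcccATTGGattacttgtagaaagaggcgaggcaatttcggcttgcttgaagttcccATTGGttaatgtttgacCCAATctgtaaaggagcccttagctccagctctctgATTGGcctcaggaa
Sc5d (chr9:42264301-42264440, minus strand): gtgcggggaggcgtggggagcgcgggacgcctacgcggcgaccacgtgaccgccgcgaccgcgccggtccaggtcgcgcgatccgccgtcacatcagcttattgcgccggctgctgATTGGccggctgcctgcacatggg
Hmgcs1 (chr13:119690211-119690350, plus strand): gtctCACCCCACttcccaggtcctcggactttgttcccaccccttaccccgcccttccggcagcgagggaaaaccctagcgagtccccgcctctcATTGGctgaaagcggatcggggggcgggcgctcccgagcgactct
Mylip (chr13:45389602-45389741, plus strand): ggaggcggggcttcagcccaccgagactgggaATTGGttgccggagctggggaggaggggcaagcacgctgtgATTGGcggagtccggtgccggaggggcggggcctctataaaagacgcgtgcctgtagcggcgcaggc
Mvk holds 4 such boxes in this stretch, Mvd and Mylip 2 each, and Sc5d and Hmgcs1 1 each. In this stretch of the 6 genes not printed, Insig2 holds 3, Ebp and Pmvk 1 each, and Abca1, Nr1h2 and Scap none. Of the 8 genes with a box, Mvd, Mvk and Sc5d fell across tissues, Mylip rose and Hmgcs1, Insig2, Ebp and Pmvk did not pass.

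The mevalonate steps open the pathway. Acat2 joins acetyl-CoA units, Hmgcs1 adds a further one, Mvk and Pmvk phosphorylate mevalonate, Mvd turns the product into isopentenyl diphosphate and Idi1 isomerises it. For Mvd, fed and fasting levels in CPM were 4.73 and 3.14 in muscle, 18.4 and 1.84 in liver, 7.81 and 3.9 in white adipose, 5.0 and 1.47 in brown adipose, 5.46 and 2.82 in heart, 10.7 and 7.4 in spleen, 49 and 25.6 in kidney, and 14.1 and 8.82 in lung. Fasting was called lower in all 8 tissues, and Mvd fell across them (log2 fold change -1.12, SE 0.27, adjusted p = 0.0455). Mvd lies on chromosome 8 (GRCm38, 122433601 to 122443422, minus strand).

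For Mvk, the fed and fasting CPM were 6.15 and 3.52 in muscle, 22.2 and 5.41 in liver, 25.6 and 9.77 in white adipose, 15 and 5.9 in brown adipose, 5.58 and 5.44 in heart, 10.4 and 6.36 in spleen, 16.5 and 7.45 in kidney, and 18.6 and 12.4 in lung. Calls of lower came from 7 tissues, all but heart, where the 2 libraries gave nearly the same level, and it fell across tissues (log2 fold change -0.98, SE 0.19, adjusted p = 0.0248). For Idi1, the corresponding CPM were 2.74 and 1.42 in muscle, 63.7 and 5.69 in liver, 11.4 and 3.28 in white adipose, 14.6 and 6.39 in brown adipose, 3.14 and 3.08 in heart, 9.62 and 3.16 in spleen, 58.4 and 12.5 in kidney, and 19.7 and 11 in lung. The pattern resembled that of Mvk, with 7 lower calls and a heart pair at -0.03 (95% counting interval -0.62 to 0.57) on the log2 scale. Across tissues Idi1 fell (log2 fold change -1.54, SE 0.31, adjusted p = 0.0287). The processed pseudogenes Gm13502 and Gm35570 share 684 and 681 bases of its 3027-base transcript at 95% identity or more, and their highest CPM in any library was 1.13 and 13.2, so the split of reads between them and Idi1 is uncertain.

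Per length, Hmgcs1 was the highest of the 19 enzymes in fed kidney, white adipose, brown adipose, heart and lung. Its fed and fasting CPM were 44.8 and 23.8 in muscle, 585 and 74.2 in liver, 209.9 and 171 in white adipose, 374 and 178 in brown adipose, 58.1 and 42.6 in heart, 67.2 and 36.5 in spleen, 721 and 543 in kidney, and 148 and 90.05 in lung. It was lower in the fasting library of all 8 tissues and called in 5 of them. The estimate across tissues did not pass the test (log2 fold change -0.90, SE 0.24, adjusted p = 0.0636). Hmgcs1 did pass with liver left out, without a low-count filter and with DESeq2's Wald test, and in no other alternative fit. Liver had the lowest value. With a term for liver on top of the common response, the response in liver differed from that in the other 7 tissues by -2.21 on the log2 scale (SE 0.29, edgeR adjusted p = 0.0219), which rests on 1 pair of liver libraries. Of the 17296 genes, 0.295% passed this test for liver in either direction.

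Pmvk differed in sign between tissues. Its fed and fasting CPM read 8.02 and 6.17 in muscle, 49.4 and 15.3 in liver, 52.6 and 27.4 in white adipose, 63 and 34.3 in brown adipose, 9.93 and 7.8 in heart, 20.2 and 17 in spleen, 14.9 and 10.5 in kidney, and 29.3 and 61.7 in lung. Liver, white adipose, brown adipose and kidney were called lower and lung higher, where the log2 fold change was 1.08 (95% counting interval 0.96 to 1.19). Set against the other 7 tissues, the log2 response in lung differed by 1.85 (SE 0.45), which did not pass the same test (edgeR adjusted p = 1.0). Acat2 was called lower in liver (-1.80), brown adipose (-0.96) and muscle (-0.92), ranged from 1.68 to 149 CPM over the 16 libraries and did not pass across tissues (log2 fold change -0.59, SE 0.19, adjusted p = 0.101). Acat2 shares 1477 bases of its transcript at 95% identity or more with Acat3, which reached 207 CPM, and 445 bases with Tcp1, which reached 228 CPM, so its reads are uncertain too.

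The farnesyl branch point is formed by Fdps, which makes farnesyl diphosphate, Ggps1, which draws it toward geranylgeranyl groups for proteins, and Fdft1, which commits it to squalene. For Fdps, fed and fasting CPM were 1.99 and 1.68 in muscle, 31.5 and 2.0 in liver, 4.16 and 1.9 in white adipose, 3.07 and 1.61 in brown adipose, 1.68 and 1.97 in heart, 6.53 and 3.2 in spleen, 2.76 and 1.59 in kidney, and 10.6 and 6.18 in lung. Liver was the tissue with the highest fed level and the lowest log2 fold change of any gene and tissue here, -3.97 (95% counting interval -4.42 to -3.56). The log2 response in liver differed from that in the other 7 tissues by -3.17 (SE 0.49, edgeR adjusted p = 0.0365), while the response across all tissues did not pass (log2 fold change -1.05, SE 0.37, adjusted p = 0.125). Fdps shares 1124 exon bases, 26.7% of its length, with Gm43738 on the same strand, a gene at no more than 0.0602 CPM. Ggps1 was called in no tissue, with log2 fold changes from -0.36 in liver to 0.20 in heart.

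The highest log2 fold change of any enzyme was that of Fdft1 in brown adipose. Its fed and fasting CPM came to 61.5 and 91.9 in muscle, 123 and 34.3 in liver, 55.6 and 52.3 in white adipose, 138 and 497 in brown adipose, 43.8 and 99.3 in heart, 20.5 and 11.8 in spleen, 31.6 and 23.9 in kidney, and 45 and 34.6 in lung. It was called higher in brown adipose (1.85), heart (1.18) and muscle (0.58) and lower in liver (-1.84) and spleen (-0.80). Its estimate across tissues was close to 0 with a wide error (log2 fold change 0.05, SE 0.35, adjusted p = 0.945). The log2 response in brown adipose differed from that of the other 7 tissues by 2.06 (SE 0.83, edgeR adjusted p = 0.796). Fdft1 overlaps Ctsb, a lysosomal protease gene on the opposite strand, in 774 exon bases (18.8% of its length). Ctsb stood at 1270 CPM in fed and 1340 CPM in fasting brown adipose, 448 and 362 CPM in heart, 218 and 199 CPM in muscle and 442 and 310 CPM in liver. The libraries were strand-specific, but the strand setting of the counting is not given in the sources used here, so the part of Ctsb reads in these values was not tested. The processed pseudogene Gm6781, at no more than 1.10 CPM, shares 1248 bases with Fdft1.

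The first oxygen enters at Sqle, the squalene epoxidase, and Lss closes the rings to lanosterol. For Sqle, fed and fasting CPM were 4.44 and 0.42 in muscle, 75.7 and 8.65 in liver, 20.3 and 13.1 in white adipose, 20.6 and 5.69 in brown adipose, 2.67 and 1.05 in heart, 21.1 and 6.36 in spleen, 103 and 55.7 in kidney, and 59 and 36.2 in lung. All 8 tissues were called lower, from -3.37 (95% counting interval -4.36 to -2.57) in muscle to -0.63 in white adipose. Sqle had the lowest estimate across tissues of the 35 genes (log2 fold change -1.56, SE 0.29, adjusted p = 0.0229). In muscle the fasting level rested on 13 counts. For Lss, fed and fasting CPM were 7.48 and 6.08 in muscle, 77.6 and 22.4 in liver, 38 and 25.8 in white adipose, 61.8 and 27.9 in brown adipose, 8.19 and 5.57 in heart, 28.3 and 18.1 in spleen, 38 and 23.1 in kidney, and 58.5 and 39.1 in lung. Lss was called lower in every tissue except muscle and fell across tissues (log2 fold change -0.76, SE 0.14, adjusted p = 0.0224).

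Sterol steps follow, in which Cyp51 removes the first methyl group of lanosterol, Tm7sf2 reduces the resulting double bond, and Msmo1, Nsdhl and Hsd17b7 take off the methyl groups next to the hydroxyl. For Msmo1, fed and fasting CPM were 7.6 and 2.62 in muscle, 212 and 33.6 in liver, 32 and 16.8 in white adipose, 23.8 and 10.3 in brown adipose, 11.3 and 7.14 in heart, 35.1 and 19.1 in spleen, 50.3 and 12.9 in kidney, and 62.8 and 37.8 in lung. Every tissue was called lower, with the lowest values in liver (-2.66) and kidney (-1.96), and Msmo1 fell across tissues (log2 fold change -1.28, SE 0.21, adjusted p = 0.0143). For Cyp51, the CPM were 8.18 and 4.23 in muscle, 206 and 41.6 in liver, 39.2 and 21.3 in white adipose, 40.2 and 29.8 in brown adipose, 23 and 13.5 in heart, 47.2 and 21.3 in spleen, 323 and 278 in kidney, and 53 and 29.8 in lung, fed first. Cyp51 was called lower in 6 tissues and fell across them (log2 fold change -0.90, SE 0.18, adjusted p = 0.0294). Kidney, where its fed level was highest, was not called and stood at -0.22. Cyp51 shares 166 exon bases (3.76% of its length) with Akap9 on the opposite strand, which reached 269 CPM. The part of Akap9 reads in its values was not tested. Msmo1 shares a stretch of at most 6.84% of its transcript, at 95% identity or more, with transcripts of 56 other genes.

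For Nsdhl, fed and fasting CPM were 3.57 and 3.36 in muscle, 74.5 and 7.33 in liver, 25.7 and 23.7 in white adipose, 42.8 and 18.5 in brown adipose, 4.59 and 3.93 in heart, 12.3 and 9.52 in spleen, 60.3 and 34.1 in kidney, and 19.4 and 12.5 in lung. There were 4 lower calls, liver foremost at -3.34 (95% counting interval -3.57 to -3.12), and the log2 response in liver differed from that in the other 7 tissues by -2.73 (SE 0.39, edgeR adjusted p = 0.0313). Hsd17b7 showed another pattern. It was called lower in white adipose, brown adipose, heart, spleen and lung, with log2 fold changes from -1.10 in lung to -0.56 in brown adipose, while liver held 85.8 CPM fed and 86.5 CPM fasting. Neither Nsdhl (log2 fold change -0.80, SE 0.31, adjusted p = 0.151) nor Hsd17b7 (log2 fold change -0.54, SE 0.16, adjusted p = 0.0795) passed across tissues. Tm7sf2 was called lower in liver (-0.91) and muscle (-0.66). It shares 532 exon bases with Vps51 on the same strand.

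The last enzymes are Ebp, which shifts a double bond, Sc5d, which sets another one, and Dhcr7, which reduces a ring double bond at the end of the pathway. For Sc5d, fed and fasting CPM were 40.2 and 29.7 in muscle, 794 and 199 in liver, 179 and 61.2 in white adipose, 119 and 59.95 in brown adipose, 32.4 and 24.4 in heart, 44.4 and 36.4 in spleen, 68.4 and 45.5 in kidney, and 75.9 and 51.2 in lung. It was lower in all 8 fasting libraries, called in 5, and fell across tissues (log2 fold change -0.81, SE 0.19, adjusted p = 0.0423). For Dhcr7, the CPM were 4.57 and 1.58 in muscle, 78.8 and 20.8 in liver, 10.4 and 4.56 in white adipose, 23.5 and 13.8 in brown adipose, 7.73 and 4.65 in heart, 15.9 and 11.9 in spleen, 15.1 and 8.26 in kidney, and 11.2 and 5.41 in lung, fed first. Only spleen, at -0.42, was not called, and Dhcr7 had the lowest adjusted p of the enzymes (log2 fold change -1.02, SE 0.15, adjusted p = 0.00973). Ebp was called in no tissue, with liver at 181 and 132 CPM and kidney at 68.6 and 82.1 CPM.

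**Figure D4:**
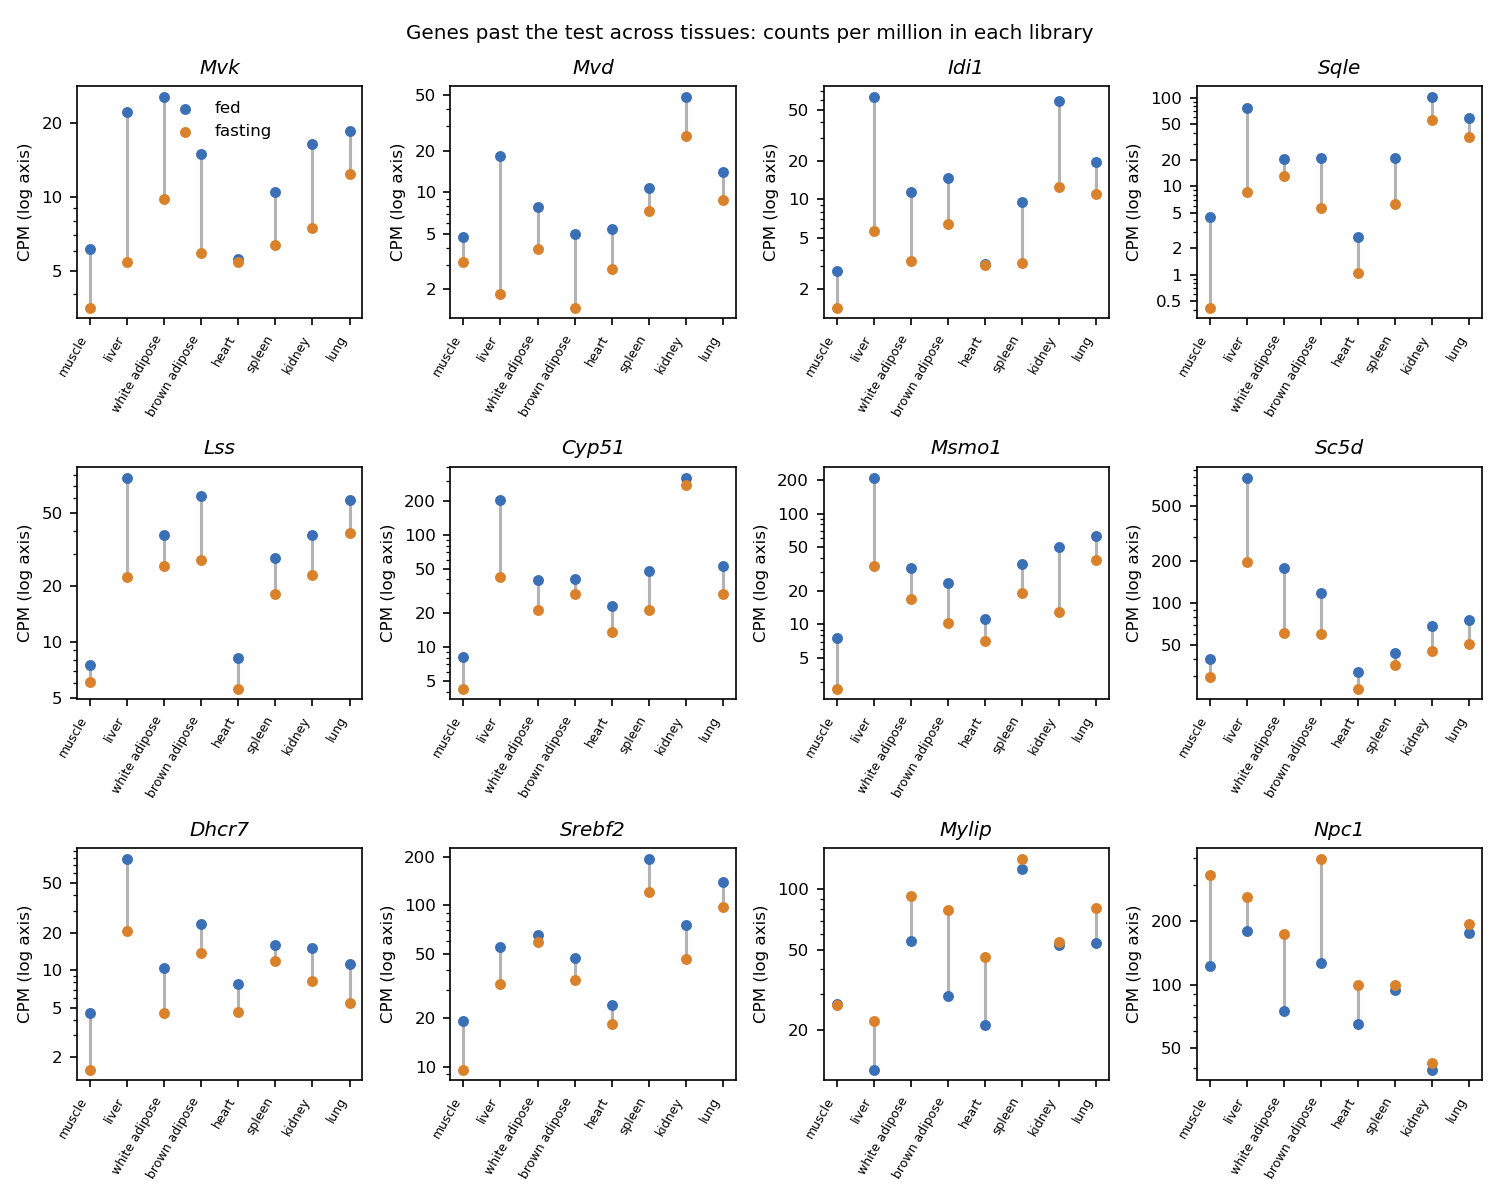
CPM on a log axis in the fed (blue) and fasting (orange) library of each tissue, for the 12 genes with an adjusted p under 0.05 across tissues. In 10 panels the orange point lies below the blue one in every tissue. In the panel of Npc1 it lies above, from 122 to 335 CPM in muscle and from 127 to 399 CPM in brown adipose.

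Sterol sensing genes did not move as one. For Srebf2, which encodes the factor that drives the pathway, fed and fasting CPM were 19.2 and 9.57 in muscle, 55.2 and 32.8 in liver, 66 and 59.5 in white adipose, 47.6 and 34.6 in brown adipose, 24.3 and 18.5 in heart, 195 and 121 in spleen, 75.8 and 46.8 in kidney, and 139.6 and 97.7 in lung. It was called lower in 5 tissues and fell across tissues with the lowest adjusted p of all 35 genes (log2 fold change -0.54, SE 0.08, adjusted p = 0.00871). Muscle had the lowest log2 fold change at -1.0, liver stood at -0.75, and white adipose at -0.15. Scap, the carrier, was called in no tissue and its log2 fold changes lay between -0.17 in kidney and 0.14 in brown adipose.

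Insig1 and Insig2 encode the 2 proteins that hold Scap in the endoplasmic reticulum, and Insig1 is itself a target of the Srebf2 factor. For Insig1, fed and fasting CPM were 26.3 and 18.2 in muscle, 462 and 56.8 in liver, 164 and 67.4 in white adipose, 439 and 229 in brown adipose, 26.8 and 30.7 in heart, 48.7 and 27.7 in spleen, 89.5 and 57 in kidney, and 122 and 81.3 in lung. It was called lower in 7 tissues, with liver at -3.02 (95% counting interval -3.10 to -2.94), but did not pass across tissues (log2 fold change -0.90, SE 0.28, adjusted p = 0.0873). For Insig2, the CPM were 33.5 and 28.1 in muscle, 272 and 587 in liver, 48 and 78 in white adipose, 34.7 and 29.1 in brown adipose, 47.3 and 36.5 in heart, 25.8 and 25.1 in spleen, 34.7 and 34 in kidney, and 31.7 and 32.6 in lung, fed first. It was called higher in liver (1.11, 95% counting interval 1.07 to 1.15) and white adipose (0.70) and in no other tissue. Per length, fed liver held 355 TPM of Insig1 and 186 TPM of Insig2, and fasting liver 46.1 TPM and 424 TPM. The ratio of Insig2 to Insig1 was thus 0.53 in fed and 9.21 in fasting liver. In white adipose it was 0.26 and 1.03, while in the other 6 tissues it lay between 0.07 (fed brown adipose) and 1.57 (fed heart). The response of Insig1 in liver against the other 7 tissues was -2.26 (SE 0.46, edgeR adjusted p = 0.0961), and neither gene passed that test, while both passed it with DESeq2's Wald test.

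Of the uptake and transport genes, Mylip and Npc1 rose. For Mylip, fed and fasting CPM were 27 and 26.4 in muscle, 12.6 and 22.1 in liver, 55.5 and 93 in white adipose, 29.6 and 78.8 in brown adipose, 21 and 45.9 in heart, 126 and 142 in spleen, 52.7 and 54.9 in kidney, and 54.2 and 81 in lung. It was called higher in 5 tissues, most in brown adipose (1.41) and heart (1.13), and rose across tissues (log2 fold change 0.64, SE 0.15, adjusted p = 0.0455). Npc1 and Npc2 encode the lysosomal membrane and lumen proteins that pass cholesterol out of lysosomes. For Npc1, on chromosome 18, fed and fasting CPM were 122 and 335 in muscle, 179.6 and 262 in liver, 74.8 and 175 in white adipose, 127 and 399 in brown adipose, 64.5 and 99.9 in heart, 94 and 99.1 in spleen, 39.2 and 42.4 in kidney, and 175 and 195 in lung. It was higher in the fasting library of all 8 tissues, called in 5, and rose across tissues (log2 fold change 0.77, SE 0.19, adjusted p = 0.0476). The largest differences were in brown adipose (1.65, 95% counting interval 1.58 to 1.72), muscle (1.46) and white adipose (1.22). Npc1 shares 511 exon bases (4.52% of its length) with Rmc1 on the opposite strand, which reached 61.5 CPM. The part of Rmc1 reads in its values was not tested. With library totals in place of TMM factors, neither Mylip nor Npc1 passed across tissues.

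Npc2 was called in none. Its fed and fasting CPM stayed near each other, at 26.3 and 22.3 in muscle, 45.2 and 36.5 in liver, 359 and 329 in white adipose, 305 and 289 in brown adipose, 49.5 and 51.3 in heart, 158 and 163 in spleen, 93.5 and 95.9 in kidney, and 587 and 680.3 in lung. Per length, Npc2 was 9.98 times Npc1 in fed and 3.92 times Npc1 in fasting white adipose, and 4.99 and 1.51 times in brown adipose. In muscle and liver the order was opposite, Npc1 standing at 2.23 times Npc2 in fed and 7.23 times in fasting muscle, and at 1.91 and 3.44 times in liver. In spleen, kidney and lung the fed and fasting ratios were close, for example 3.49 and 3.41 times as much Npc2 as Npc1 in spleen.

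Stard4, which moves sterol between membranes and is a target of the Srebf2 factor, was called lower in liver (-2.29, 153 to 31.3 CPM), muscle (-1.19), brown adipose (-0.89) and lung (-0.67), and did not pass across tissues (log2 fold change -0.67, SE 0.23, adjusted p = 0.116). Scarb1, the receptor for high-density lipoprotein, was called higher in brown adipose only (0.54, 82.7 to 120.0 CPM), and in liver held 162 and 167 CPM. Tmem97, a membrane protein that binds sterols and Npc1, was called in none and reached 48.5 CPM in fed liver.

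The acyltransferases Soat1 and Soat2 store cholesterol as its ester, and each had its own tissues. For Soat1, fed and fasting CPM were 5.03 and 4.36 in muscle, 8.81 and 7.37 in liver, 32.1 and 63.7 in white adipose, 7.59 and 6.88 in brown adipose, 12.2 and 9.96 in heart, 145 and 143 in spleen, 60.1 and 55.5 in kidney, and 330.5 and 255 in lung. It was called in white adipose alone, at 0.99 (95% counting interval 0.86 to 1.11), and its log2 response to fasting there exceeded that of the other 7 tissues by 1.03 (SE 0.17, edgeR adjusted p = 0.0063), a test that 3.82% of all genes passed for white adipose in either direction. For Soat2, fed and fasting CPM were 0.125 and 0.259 in muscle, 37.7 and 26.3 in liver, 0.687 and 1.31 in white adipose, 0.12 and 0.211 in brown adipose, 0.0581 and 0.328 in heart, 3.36 and 2.91 in spleen, 0.401 and 0.349 in kidney, and 0.798 and 2.0 in lung. It was called lower in liver (-0.52) and higher in lung (1.31, 95% counting interval 0.64 to 2.05), where the fed library held 24 counts. In muscle, brown adipose, heart and kidney Soat2 stayed under 1 CPM, on at most 9 counts a library. Per length, Soat2 was 18.9 times Soat1 in fed and 15.8 times in fasting liver, while in every other tissue Soat1 was the higher one, by 3.81 times in fasting muscle to 93.6 times in fed lung.

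The exporters Abca1 and Abcg1 hand cholesterol to lipoproteins. For Abcg1, fed and fasting CPM were 2.58 and 2.72 in muscle, 14.9 and 13.1 in liver, 48.3 and 251 in white adipose, 21.1 and 52.9 in brown adipose, 8.89 and 7.27 in heart, 168 and 190.3 in spleen, 17.8 and 16.2 in kidney, and 165 and 173 in lung. It was called higher in white adipose (2.38, 95% counting interval 2.29 to 2.47) and brown adipose (1.33) and in no other tissue. Its log2 response to fasting in white adipose exceeded that of the other 7 tissues by 2.06 (SE 0.45, edgeR adjusted p = 0.0290). For Abca1, the CPM were 72.9 and 85.6 in muscle, 620.2 and 489 in liver, 997 and 1067 in white adipose, 375 and 307 in brown adipose, 81.2 and 98.8 in heart, 355 and 488 in spleen, 97.3 and 104 in kidney, and 245 and 285 in lung, fed first, and no tissue was called. Per length, Abca1 exceeded Abcg1 by 14.5 times in fed and 2.99 times in fasting white adipose, and by 12.5 and 4.08 times in brown adipose. In lung the 2 genes were close, at 66.8 and 63.7 TPM in the fed library. Macrophages are known to hold much Abcg1 and Soat1. None of 10 macrophage markers was called in white adipose, where their sum was 1287 CPM fed and 1147 CPM fasting and the lowest of them stood at 1.25 CPM. In brown adipose 1 of the 10 was called higher, and the sum was 226 and 197 CPM. The part of macrophages in the Abcg1 and Soat1 values was not tested.

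Nr1h2 and Nr1h3, the LXR genes, were called in no tissue. For Nr1h3, fed and fasting CPM were 10.9 and 11.2 in muscle, 83.4 and 85.5 in liver, 85.2 and 97.3 in white adipose, 59.9 and 54.3 in brown adipose, 14.5 and 19.2 in heart, 53.2 and 55.3 in spleen, 52.3 and 42.1 in kidney, and 39.6 and 49.5 in lung. For Nr1h2, the CPM were 24.5 and 27.7 in muscle, 27.8 and 28.4 in liver, 60.2 and 61 in white adipose, 54.4 and 57.8 in brown adipose, 35.7 and 40.9 in heart, 74 and 71.8 in spleen, 62 and 55.6 in kidney, and 65.4 and 65.4 in lung, fed first. Per length, Nr1h3 exceeded Nr1h2 by 4.0 times in fed and 4.02 times in fasting liver. In the fed libraries it stood below Nr1h2 in muscle (0.59 times), heart (0.54 times), lung (0.81 times) and spleen (0.96 times). Neither passed across tissues, with a log2 fold change of 0.08 (SE 0.06) for Nr1h2 and 0.11 (SE 0.08) for Nr1h3.

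**Figure D5:**
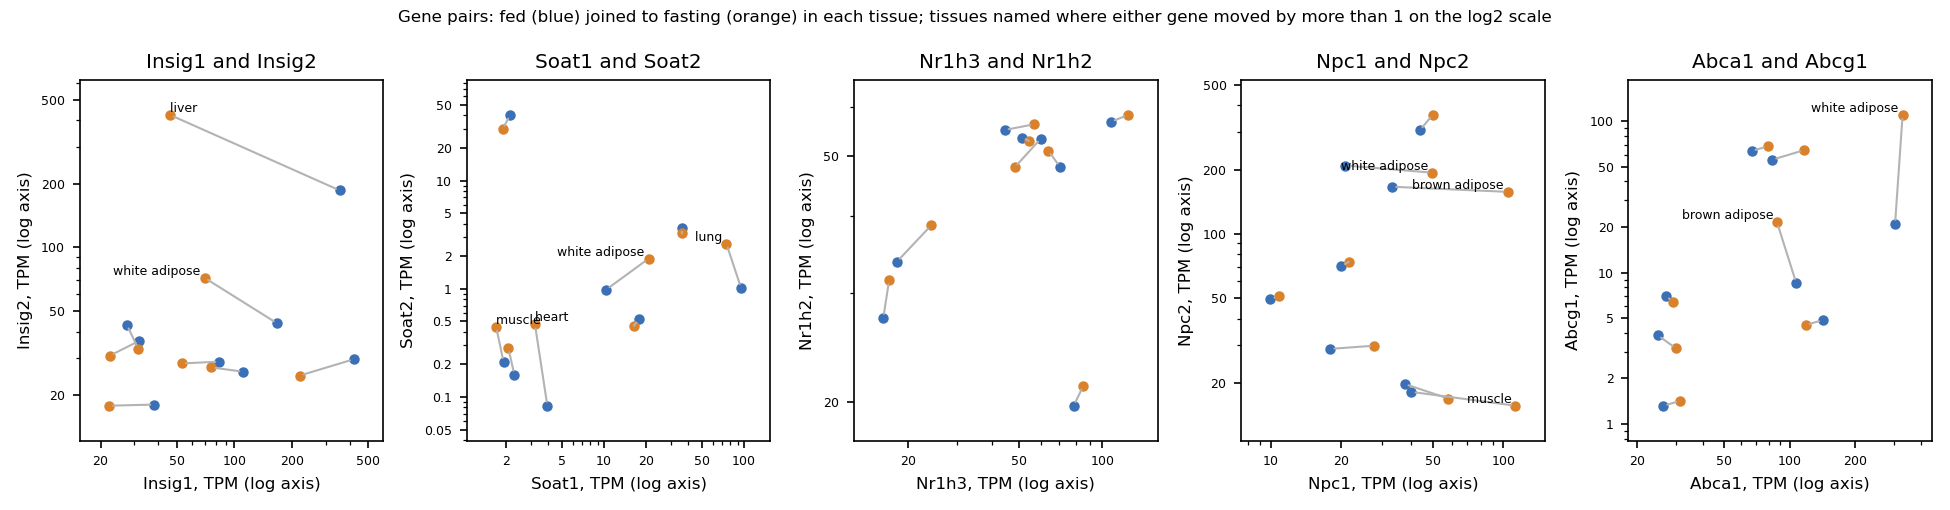
TPM on log axes of 5 gene pairs, with the fed (blue) and fasting (orange) library of each tissue joined by a line. Tissues are named where either gene moved by more than 1 on the log2 scale. The liver line in the Insig panel runs from 355 and 186 TPM to 46.1 and 424 TPM of Insig1 and Insig2, and the white adipose line in the Abcg1 panel rises from 21.0 to 110.2 TPM of Abcg1.

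Fed tissues differed widely in these genes before any fast. Of the 19 enzymes, 10 had their highest fed CPM in liver and 4 in kidney, and 12 had their lowest in muscle and 5 in heart. Acat2 ranged from 3.20 CPM in muscle to 149 CPM in brown adipose, and Sc5d from 32.4 CPM in heart to 794 CPM in liver. Soat2 ranged from 0.0581 CPM in heart, which is 1 count, to 37.7 CPM in liver. Nr1h2 stayed within 24.5 CPM in muscle and 74.0 CPM in spleen.

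Another 43 genes of the pathway that were not among the 35 were followed in 4 lists. Of 10 genes of SREBP processing and sterol sensing, 1 fell across tissues, Srebf1, the sister of Srebf2 that drives fatty acid synthesis (log2 fold change -1.29, SE 0.30, edgeR adjusted p = 0.0423). For Srebf1, fed and fasting CPM were 72.5 and 26.3 in muscle, 342 and 33.5 in liver, 432 and 161 in white adipose, 457 and 122 in brown adipose, 37.5 and 30.3 in heart, 89.7 and 68.8 in spleen, 81.3 and 28.6 in kidney, and 138 and 102 in lung, with calls in 5 tissues. Mbtps1 and Mbtps2, the proteases that cut the factors free, were called in none. Of 8 genes of isoprenoid branches and redox partners, 1 fell across tissues, Pdss1, which makes the tail of coenzyme Q (log2 fold change -0.54, SE 0.11, edgeR adjusted p = 0.0252). Its fed and fasting CPM were 8.39 and 4.17 in muscle, 4.65 and 3.16 in liver, 5.88 and 5.47 in white adipose, 14.4 and 7.3 in brown adipose, 17 and 10.6 in heart, 10.7 and 8.55 in spleen, 20.9 and 14 in kidney, and 6.19 and 4.55 in lung, with calls in 4 tissues.

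Por, the electron donor of Cyp51 and Sqle, had the largest change of that list, with 128 CPM in fed and 719 CPM in fasting liver. Of 12 genes of lipoprotein uptake and sterol transport, 0 passed across tissues with edgeR and 0 with DESeq2, and 2 had an unadjusted p under 0.05 in edgeR, a threshold that 23.8% of all genes tested passed. In the lists of 10, 8 and 13 genes, 4, 3 and 3 did, and DESeq2 passed Pdss2 besides Srebf1, Pdss1 and Smpdl3a. For Vldlr, a receptor for triglyceride-rich lipoproteins, fed and fasting CPM were 487 and 741 in muscle, 4.04 and 4.45 in liver, 123 and 118 in white adipose, 471 and 522 in brown adipose, 709.7 and 1061 in heart, 6.27 and 9.59 in spleen, 166 and 136 in kidney, and 85.5 and 141 in lung, with higher calls in muscle, heart, spleen and lung. Gramd1b, which carries sterol from the plasma membrane to the endoplasmic reticulum, had the list's largest change, from 49.1 to 130.0 CPM in brown adipose. Of 13 genes of efflux, conversion and LXR targets, 9 could be fitted and 1 rose, Smpdl3a, an LXR target (log2 fold change 0.32, SE 0.07, edgeR adjusted p = 0.0397). Its fed and fasting CPM were 70.8 and 76.8 in muscle, 33.6 and 44.7 in liver, 79.8 and 118 in white adipose, 126 and 173 in brown adipose, 83.6 and 109 in heart, 81.2 and 94.8 in spleen, 506 and 502 in kidney, and 122 and 128 in lung, and white adipose was called higher. The largest change among the called genes of this list was that of Ch25h, which makes an oxysterol, in heart, from 0.349 to 1.97 CPM.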

How the data were processed

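RNA of 8 pooled mouse tissues, fed or fasted for 24 h, was sequenced as strand-specific short-read libraries, 1 per tissue and treatment. Per the labels and the study's methods, the authors made the deposited values, raw counts per gene, with fastp (0.23.2) for trimming, FastQC (0.11.8) for quality, HISAT2 (2.2.1.0) for alignment on GRCm38 and featureCounts from Subread (2.0), and gave a deposited exon length per gene (another value, in bases). The strand setting of the counting, and whether reads or pairs were counted, is not given in the sources used here. Reads shared by overlapping or near-identical genes may have been lost or assigned to either.

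Counts were divided by library totals (14245178 to 36069968) to give CPM, and by exon length for TPM. Within a tissue, Fisher's exact test compared the 2 libraries (p under 0.01, and over 0.5 on the log2 scale either way with 0.01 CPM added), and 95% intervals and the floor of 3 counts cover counting error only. Across tissues, edgeR's quasi-likelihood test (4.0.16, R 4.3.3, TMM factors, filterByExpr on the treatments, tissue as block) was adjusted by Benjamini-Hochberg over 17296 genes, and a term for 1 tissue tested its difference from the other 7. The fit left 7 residual degrees of freedom. The SE of an edgeR estimate was derived as the size of the log2 fold change over the square root of the test's F statistic. The p-values rest on the spread between tissues of the same 2 pools of mice. Scripts were tested on simulated counts. Also used were DESeq2 1.42.0 as an alternative, Python 3.11.15, scipy 1.17.1, pandas 2.3.3, numpy 2.4.6 and matplotlib 3.10.9. Near-identical transcripts were aligned stretches of at least 150 bases at 95% identity. Promoter windows came from RefSeq (GRCm38.p6).

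The genes and lists were chosen with earlier results of these data known. Values in every library are given for genes called 1 way in 6 or more tissues, past the test across tissues or for 1 tissue, called each way by more than 1 on the log2 scale, and for 5 gene pairs. Of other pathway genes, those called in 4 or more tissues, past the test, or with the largest change of their list are named. Alternatives were other scalings, pseudocounts, filters, thresholds, an assumed coefficient of variation, DESeq2 and leaving out tissues.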

Additional observations from a re-analysis of the deposited data

Results flagged for a closer look

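Of the 35 genes, 5 differed in 1 tissue from their response in the other 7, by a test of that difference in edgeR. For liver 0.295% of all 17296 genes passed this test in either direction, and for white adipose 3.82%. In liver, Hmgcs1 differed by -2.21 (SE 0.29, adjusted p = 0.0219), Fdps by -3.17 (SE 0.49, adjusted p = 0.0365) and Nsdhl by -2.73 (SE 0.39, adjusted p = 0.0313) on the log2 scale. In white adipose, Soat1 was higher by 1.03 (SE 0.17, adjusted p = 0.0063) and Abcg1 by 2.06 (SE 0.45, adjusted p = 0.0290). Each rests on 1 pair of libraries in the tissue concerned, whose pool of mice is assumed to vary like the other tissues. With library totals in place of TMM factors the same genes passed.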

How the results depend on the processing

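The fit across tissues pairs fed and fasting libraries by tissue. No pairing by replicate was made, because each group has 1 library and the labels carry no replicate numbers. Depth limits genes of a few counts, such as Soat2 outside liver, spleen, white adipose and lung. No value changed sign while called.

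Within tissues, raising the threshold to a log2 fold change above 1 left 5 lower calls in muscle, 7 in white adipose, 8 in brown adipose, 2 in heart, 4 in spleen, 3 in kidney and 2 in lung, and 1 higher call in muscle, 1 in liver and 2 in white adipose. Over all tissues 48 lower and 12 higher calls remained. If pools varied with a coefficient of variation of 0.2 (edgeR exact test), the lower calls were 3 in muscle, 5 in white adipose, 7 in brown adipose, 0 in heart, 3 in spleen, 3 in kidney and 1 in lung, and the higher ones 1 in muscle, 1 in liver, 2 in white adipose and 0 in lung. Over all tissues these were 39 lower and 10 higher calls. Under both settings the lower calls in liver, not listed, stayed within 1.5 times of their count and were the most of any tissue. With 0.4, there were 10 lower calls in liver, 1 in muscle and 0 in both adipose tissues, heart, spleen, lung and kidney, and 1 higher call in white adipose and 0 in liver, lung, muscle, heart and brown adipose. A pseudocount of 1 CPM, TMM or DESeq2 scaling, totals without the 10 highest genes, adjusted p-values and a minimum of 1 CPM kept every tissue's counts within 1.5 times.

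Across tissues, between 3 and 10 genes fell and 0 to 2 rose when each tissue was left out in turn. Of all genes tested, 52 (without brown adipose) to 381 (without spleen) fell in these fits. Between 104 (without brown adipose) and 340 (without spleen) rose. Without both adipose tissues 2 fell (Dhcr7 and Srebf2) and 0 rose, where 35 of all 17300 genes tested fell and 96 rose. DESeq2's Wald test gave 17 that fell, but also called 6.16% of all genes tested lower. Without tissue as block 0 fell and 0 rose in edgeR, 4 and 0 having an unadjusted p under 0.05, and 1 of all genes tested passed. Library totals alone gave 0 that rose, robust dispersion 1, and a low-count filter on the full model, chosen after seeing the data, 0. Of all genes tested, 313 of 17296, 389 of 17296 and 244 of 23580 rose, in that order. In each of these fits but that without block, 17 to 19 genes were lower and 2 to 3 higher at an unadjusted p under 0.05. The cause of these changes was not tested. The estimate for Fdft1 was -0.20 without brown adipose, -0.12 without heart and -0.05 without muscle. For the liver response, DESeq2 gave 8 genes in place of 3, adding Mvd, Cyp51, Insig1, Insig2 and Stard4, and passed 1.89% of all genes tested. Leaving Fdft1 out of the summed synthesis enzymes, also chosen after seeing the data, took the log2 ratio in brown adipose from -0.20 to -0.88, in muscle from -0.15 to -0.52 and in heart to -0.35.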
